A study of Mus musculus with 41 samples.

Results

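The NRF2 antioxidant pathway was followed through 10 genes, Srxn1, Txnrd1, Nqo1, Hmox1, Slc7a11, Gclc, Gclm, Gsr, Nfe2l2 and Keap1. They were taken by symbol from the 55536 gene rows that each of the RNA-seq and iSLAM-seq count tables holds, and all 10 were found. Srxn1 was selected on its measured difference between vectors in iSLAM-seq averaged over 0.5 to 8 h, where it stood out, so its iSLAM-seq values are given as a description with no test. The other 9 were included as known genes of the pathway.

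NRF2, the product of Nfe2l2, is a transcription factor that is made continuously and destroyed continuously. KEAP1 holds it and passes it to a CUL3 ubiquitin ligase, and oxidants or electrophiles that modify KEAP1 let NRF2 accumulate, pair with a small MAF protein and bind antioxidant response elements. BACH1 competes for many of the same elements. The targets make glutathione, keep thioredoxin and peroxiredoxins reduced, and break down heme and quinones. In the male germline, moderate amounts of reactive oxygen species are known to support self-renewal of cultured stem cells, and larger amounts damage germ cells.

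The series holds 41 mouse samples from 3 assays and concerns RHOX10, a homeobox transcription factor of the germline. RNA-seq compared C57BL/6 animals labelled wild-type (WT) with animals labelled Rhox10-null (KO), in testis cells collected by the fluorescence of an Oct4-GFP reporter carried by both genotypes, with 4 libraries each and the testes of 3 animals pooled in every library. The animals' age is not in the labels. iSLAM-seq (SLAM-seq, a method built on chemical marking of newly made RNA, run after an inducible factor is switched on) used germline stem cells grown from newborn C57BL/6 testes, in which an shRNA lentivirus had knocked down endogenous Rhox10 in every group. A further lentivirus then carried either a Rhox10-ERT2-mCherry fusion (Rhox10 libraries) or ERT2-mCherry alone, the empty vector (Ctrl libraries), and the ERT2 part answers to 4-hydroxytamoxifen. Cells were taken at 0, 0.5, 1, 2, 4 and 8 h, with 2 libraries per vector and time. The hours are read here as time after 4-hydroxytamoxifen in both vectors, so elapsed time and the drug cannot be told apart within a vector. The labels call the 2 libraries biological replicates and do not say whether they came from separate transductions, so p-values measure the spread between these libraries. Whether the deposited counts are limited to marked reads is not given in the sources used here. CUT&Tag (tagging of DNA at an antibody-bound protein) was made in knockdown cells carrying HA-tagged Rhox10, and the deposited table of its RHOX10 peaks is used here.

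The RNA-seq libraries held 6602089 to 8278887 counts and the iSLAM-seq libraries 9419615 to 12645845. A single gene, Gm42418, took 50.98% to 59.37% of each RNA-seq library. Rhox10 itself had 3 to 10 counts in WT and 4 to 11 in KO libraries, so the RNA-seq counts do not verify the genotype labels, and "KO" below means the label. In iSLAM-seq Rhox10 was at 34.0 to 46.7 CPM (counts relative to the TMM-scaled library size, in the usual CPM unit) in Rhox10 libraries, 0 h included, and at 0.202 to 2.42 CPM in Ctrl libraries. In RNA-seq, 6 germ cell markers summed to 215 to 226 CPM in WT and 104 to 114 CPM in KO libraries, below the sum of 5 Sertoli markers (452 to 495 and 502 to 524 CPM). In iSLAM-seq the germ cell markers summed to 1511 to 2293 CPM in Ctrl and 1672 to 1961 CPM in Rhox10 libraries, and the Sertoli marker Amh was at 0 throughout. The 2 Ctrl libraries at 0.5 h correlated less than any other pair (r = 0.971, against 0.986 for the next), and results that turn on them are given with and without them.

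In the CUT&Tag table, 7 of the 10 genes had a RHOX10 peak named for them, and 5 had one within 3 kb of their start site. Among all genes tested in RNA-seq, a set without Nqo1 and Slc7a11, 27.3% had a named peak within 3 kb. The share with a peak at any distance was not worked out, so the count of 7 has no background. The 5 were Srxn1, Nqo1, Keap1, Gclm and Gsr. The Gclc and Hmox1 peaks lay in intergenic DNA, at -3844 and -9754 bases from the start site (negative values are upstream). No peak was named for Nfe2l2, Txnrd1 or Slc7a11, whose closest peaks were at -127470, -21799 and 613591 bases. Scores are the authors' own. The median over the 5147 peaks was 127.5, and the members' peaks scored 138.2 (Gsr), 119.8 (Gclm), 99.8 (Nqo1), 99.0 (Keap1), 91.2 (Gclc), 75.2 (Srxn1) and 41.1 (Hmox1). Of these only the Gsr peak was above the median, and the Hmox1 peak scored above 9.4% of all peaks.

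The peak sequences were searched on both strands for TGACTCAGC and TGAGTCAGC, strict spellings of the antioxidant response element core that also contain the AP-1 sites TGACTCA and TGAGTCA. They are shown because 3 of the 7 members' peaks held a copy, as did 66 of the 5143 peaks on assembled chromosomes (1.28%). A copy is a match of letters and was not tested as a site of any factor, and the strict spellings were chosen after a looser search. Sequences are from the plus strand of GRCm38, each copy is in capitals, and a copy on the minus strand reads GCTGAGTCA in these stretches.
Srxn1 promoter, chr2:152105449-152105517: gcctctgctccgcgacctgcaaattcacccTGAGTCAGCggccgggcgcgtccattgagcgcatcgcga
Gclc upstream peak, chr9:77750715-77750783: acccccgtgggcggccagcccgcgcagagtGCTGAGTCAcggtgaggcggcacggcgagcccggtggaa
Hmox1 upstream peak, chr8:75083919-75084044: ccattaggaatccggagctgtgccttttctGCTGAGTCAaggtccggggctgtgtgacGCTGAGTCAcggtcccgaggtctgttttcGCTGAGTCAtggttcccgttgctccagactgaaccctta
The Hmox1 stretch held 3 copies in close succession, and only 1 other peak in the table, named for 1600010M07Rik, held 3, which was the most in any peak. In RefSeq promoter windows (GRCm38, 250 bases before each start searched), 232 of 32851 windows held a copy (0.706%). Of the 7 members with such a window, only Srxn1 held one, beginning at -45 bases from the start. The looser spellings TGACNNNGC and TGAGNNNGC, in which N is any base, were in 57.0% of peaks and in 6 of the 7 members' peaks.

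In iSLAM-seq Slc7a11, Nqo1, Hmox1, Nfe2l2, Gclc and Txnrd1 were higher in Rhox10 than in Ctrl libraries at the start of the time course, while Gclm, Gsr and Keap1 were not called there. A gene is written as called, or as having risen or fallen, where its edgeR quasi-likelihood test had a Benjamini-Hochberg adjusted p under 0.05 over all genes tested. Averaged over 0.5 to 8 h, 7 of the 9 genes tested beside Srxn1 were called, all 7 higher in Rhox10 libraries. Over all 20642 genes tested 37.1% were called, 18.7% higher and 18.4% lower. The median log2 difference of the 9 was 0.24, against 0.0015 over all genes. The 7 called were Nqo1 (1.55), Slc7a11 (1.40), Hmox1 (0.58), Nfe2l2 (0.35), Txnrd1 (0.24), Gclc (0.22) and Keap1 (0.16), in log2 units. Gclm and Gsr were not called. At 0 h, 6 of the 9 were already called, all higher in Rhox10 libraries, where 10.9% of all genes were called, 6.56% higher and 4.32% lower. The same number, 6, differed at 0.5 h and 1 h, where 14.5% and 9.91% of all genes were called, and at 2 h, where 2070 of the 20642 were, and 3 differed at 4 h, where 12.2% were. At 8 h 6 were called again, now 3 higher and 3 lower, where 16.8% of genes were called, 8.06% higher and 8.79% lower. Of those 6 only Nqo1 kept its call in each fit without 1 library of that time, and at 0 h Slc7a11, Nqo1, Hmox1 and Nfe2l2 kept theirs. An F-test of the change in the difference from 0 h called 5 of the 9, where 2.39% of all genes were called. The 5 were Hmox1, Txnrd1, Gclc, Nfe2l2 and Slc7a11. With all 0.5 h libraries left out the count was 5. Without Ctrl 0.5 h replicate 1 Gsr, Keap1 and Gclm were added, a fit in which replicate 2 alone stands for its group. The share of all genes called in that fit was not worked out. With all 0.5 h libraries left out of the average, the difference of Gclc was 0.13 and that of Keap1 0.25, both still called. Markers of cell types moved with the average too: 5 of 6 germ cell markers and 3 of 4 endothelial markers were lower in Rhox10 libraries, where the endothelial sum was 19.8 to 32.0 CPM against 31.3 to 46.8 CPM in Ctrl libraries, and 2 of the 4 macrophage markers tested were lower and 1 higher (summed level of all 8, 20.05 to 26.8 against 24.1 to 39.5 CPM). In the same comparison 2 of the 3 Sertoli markers tested were higher (sum of all 5, 296 to 625 against 253 to 489 CPM), 2 of 4 myoid markers were lower (17.9 to 38.7 against 29.7 to 55.0 CPM), 1 of the 2 erythroid markers tested was lower, and 0 of the 2 Leydig markers tested were called. Their part in the members' differences was not tested.

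**Figure D1:**
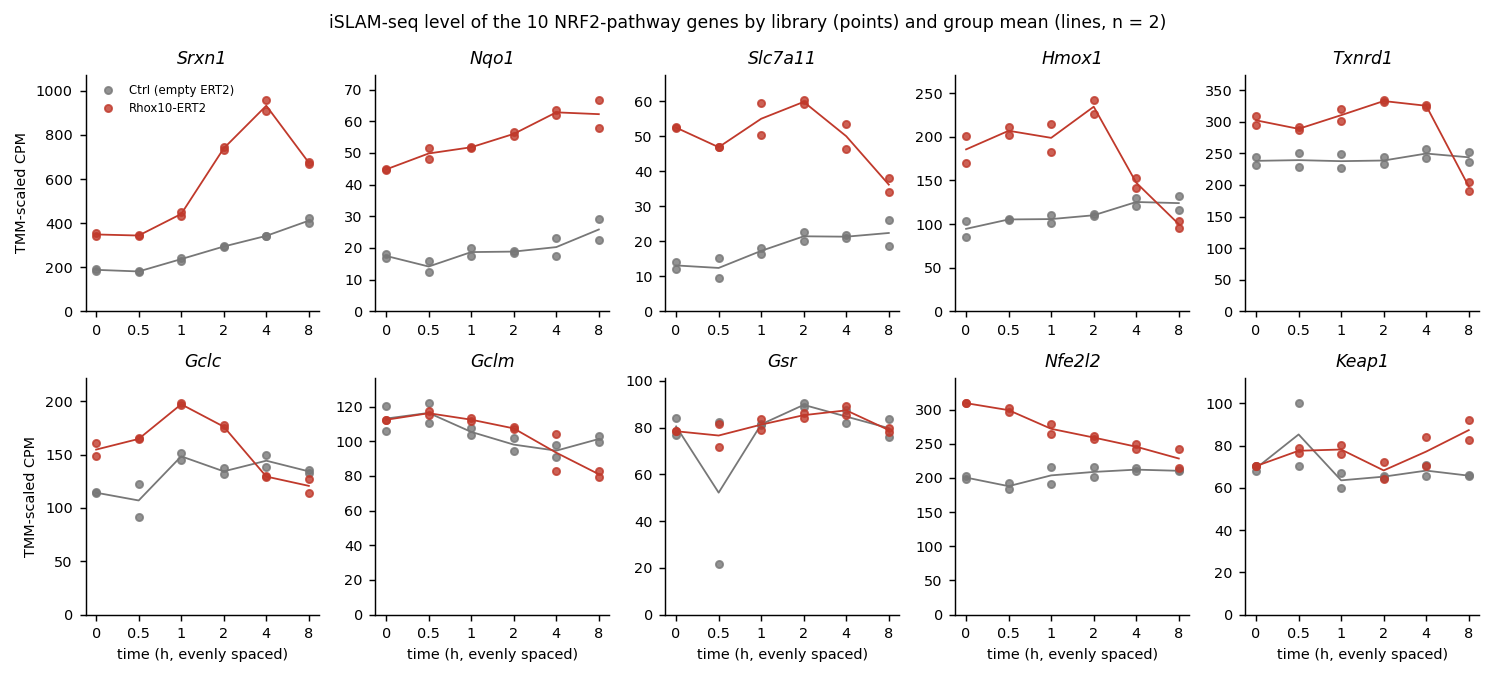
Level of each of the 10 genes in iSLAM-seq, in TMM-scaled CPM on the y axis (from 0) against time in hours, evenly spaced, with a point per library and a line through the mean of the 2 libraries. The Rhox10-ERT2 libraries of Nqo1 and Slc7a11 lie above all Ctrl libraries at every time. Those of Hmox1, Txnrd1, Gclc and Gclm lie below Ctrl at 8 h, and 1 Ctrl library at 0.5 h lies far below the rest for Gsr.

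Srxn1 (ENSMUSG00000032802, GRCm38 chromosome 2, 152105516 to 152111376, plus strand) encodes sulfiredoxin, which restores over-oxidised 2-Cys peroxiredoxins. Its level in Ctrl libraries was 193 and 184 CPM (0 h), 183 and 179 (0.5 h), 244 and 229.8 (1 h), 295 and 293 (2 h), 343 and 341 (4 h) and 399 and 423 (8 h). In Rhox10 libraries it was 356 and 341 CPM (0 h), 345 and 342 (0.5 h), 434 and 449.7 (1 h), 746 and 732 (2 h), 959 and 906 (4 h) and 679 and 669 (8 h). Every Rhox10 library was above both Ctrl libraries of its time, and the highest values were at 4 h with the fusion and at 8 h with the empty vector. Ranked by mean level, the Rhox10 groups at 4, 2, 8 and 1 h came first, followed by Ctrl at 8 h. Rhox10 at 0 h, Rhox10 at 0.5 h and Ctrl at 4 h came next and overlapped, so their order is not resolved. The log2 difference between vectors was 0.89 (SE 0.0586) at 0 h, 0.93 at 0.5 h, 0.90 at 1 h, 1.33 at 2 h, 1.45 (SE 0.0585) at 4 h and 0.71 (SE 0.0577) at 8 h. The part added after 0 h was thus largest at 4 h, at 0.56, and it was -0.18 at 8 h. Srxn1 was selected on these libraries, so the SEs describe spread between libraries and are not used as a test. From 0 to 8 h the level differed by 1.13 log2 units in Ctrl and by 0.95 in Rhox10 libraries, so both vectors ended higher than they began.

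By the correlation of log2 CPM over the 24 iSLAM-seq libraries, the 5 genes most like Srxn1, out of 12059 with a mean of at least 5 CPM, were Il11 (r = 0.989), Prkg2 (0.983), Tnc (0.982), Ivl (0.974) and Cdh6 (0.967). The libraries share vectors and times, so these values describe likeness of pattern only. Il11, which encodes a cytokine, averaged 7.73 CPM in Ctrl and 24.9 CPM in Rhox10 libraries at 0 h, and 21.7 and 167 CPM (4 h). None of the 5 is a member. Among the members Nqo1 (0.849) and Slc7a11 (0.777) were most like Srxn1, and Gclm (-0.52) was least like it.

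Nqo1 and Slc7a11 had the largest averaged differences among the 9 tested members. Nqo1 (ENSMUSG00000003849, chromosome 8, 107388225 to 107403206, minus strand) encodes the quinone reductase that is a classical NRF2 reporter. It was at 17.0 and 18.0 CPM in Ctrl and 44.7 and 44.9 CPM in Rhox10 libraries at 0 h, and at 22.5 and 29.2 against 57.8 and 66.7 CPM (8 h). Over all times Ctrl libraries ranged from 12.3 to 29.2 CPM and Rhox10 libraries from 44.7 to 66.7 CPM, with no overlap. The log2 difference was 1.36 at 0 h (edgeR adjusted p = 1.61e-06) and 1.27 at 8 h (edgeR adjusted p = 1.66e-06), and no change from 0 h was called (edgeR adjusted p = 0.621, 0 to 8 h -0.086, 95% interval -0.50 to 0.33). Within each vector Nqo1 rose from 0 to 8 h, by 0.56 in Ctrl and 0.47 in Rhox10 libraries (edgeR adjusted p = 0.0311 and adjusted p = 0.0437). The Ctrl call was lost without Ctrl 0 h replicate 1 or 2 or Ctrl 8 h replicate 2 (edgeR adjusted p from 0.133 to 0.370), and the Rhox10 call without any 1 of its 4 libraries (edgeR adjusted p from 0.0659 to 0.323).

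Slc7a11 (ENSMUSG00000027737, chromosome 3, 49892526 to 50443614, minus strand) encodes the cystine importer that feeds glutathione synthesis. At 0 h it was at 14.1 and 12.1 CPM in Ctrl and 52.4 and 52.5 CPM in Rhox10 libraries. At 2 h it was at 22.7 and 20.1 against 60.3 and 59.2 CPM, and at 8 h at 18.7 and 26.0 against 38.2 and 34.1 CPM. The groups did not overlap at any time, but they came closer. The log2 difference was 2.00 at 0 h, 1.48 at 2 h and 0.69 at 8 h, a change from 0 h that was called (edgeR adjusted p = 0.0163). Without Ctrl 8 h replicate 2 or either Rhox10 8 h library this call was lost (edgeR adjusted p = 0.154, adjusted p = 0.0598 and adjusted p = 0.123). The 8 h call was lost without Ctrl 8 h replicate 1 or Rhox10 8 h replicate 1 (edgeR adjusted p = 0.133 and adjusted p = 0.0593). In Ctrl libraries Slc7a11 rose by 0.77 from 0 to 8 h (edgeR adjusted p = 0.0126), and in Rhox10 libraries the value was -0.54 (edgeR adjusted p = 0.0535, not called, though DESeq2 called it with adjusted p = 0.0294). The Ctrl call was lost without Ctrl 0 h replicate 2 or Ctrl 8 h replicate 2 (edgeR adjusted p = 0.158 and adjusted p = 0.239).

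Hmox1 (ENSMUSG00000005413, chromosome 8, 75093621 to 75100589, plus strand) encodes heme oxygenase 1, which breaks heme down to biliverdin, iron and carbon monoxide. In Rhox10 libraries it was at 201 and 170.0 CPM (0 h), 242 and 227 (2 h), 153 and 142 (4 h) and 104 and 95.9 (8 h). In Ctrl libraries it was at 104 and 85.3 CPM (0 h), 111 and 109 (2 h), 129.6 and 121 (4 h) and 132 and 116 (8 h). Rhox10 libraries were higher up to 4 h and both were lower at 8 h. The log2 difference was 0.97 at 0 h (edgeR adjusted p = 1.13e-06), 1.09 at 2 h, 0.23 at 4 h (not called) and -0.31 at 8 h (edgeR adjusted p = 0.0462). The change from 0 h had the smallest p of the 9 (edgeR adjusted p = 2.57e-06), with a change of -1.29 from 0 to 8 h. Within vectors, Hmox1 fell by 0.89 on the log2 scale in Rhox10 libraries and rose by 0.39 in Ctrl libraries (edgeR adjusted p = 3.19e-06 and adjusted p = 0.0278). Over the 9 alternatives run the 8 h value ranged from -0.39 to -0.18, and 7 of them lost the call. These 7 included library totals (edgeR adjusted p = 0.118) and each fit without 1 of the 4 libraries of that time. The call of the rise in Ctrl was lost without Ctrl 0 h replicate 2 or either Ctrl 8 h library. The rise ranged from 0.25 to 0.53 over the fits without 1 library. The 3 motif copies of the upstream peak are those printed above.

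Txnrd1 (ENSMUSG00000020250, chromosome 10, 82833951 to 82897712, plus strand) encodes thioredoxin reductase 1, which keeps thioredoxin reduced. It stayed between 227 and 256 CPM in all 12 Ctrl libraries. In Rhox10 libraries it was at 309.7 and 295 CPM (0 h), 331 and 335 (2 h), 324 and 327 (4 h) and 205 and 190.1 (8 h). The 8 Rhox10 libraries from 0.5 to 4 h and both at 0 h were above every Ctrl library, and both 8 h libraries were below every Ctrl library. The log2 difference was 0.34 at 0 h and -0.30 at 8 h (edgeR adjusted p = 0.00227 and adjusted p = 0.00436), and the change from 0 h was called (edgeR adjusted p = 0.00018). The 0 h call was lost without Ctrl 0 h replicate 1 (edgeR adjusted p = 0.0589), and the 8 h call without Ctrl 8 h replicate 1 or Rhox10 8 h replicate 2 (edgeR adjusted p = 0.148 and adjusted p = 0.133).

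Glutathione is made by glutamate-cysteine ligase, whose catalytic subunit is encoded by Gclc (ENSMUSG00000032350, chromosome 9, 77754535 to 77794485, plus strand) and whose modifier subunit is encoded by Gclm (ENSMUSG00000028124, chromosome 3, 122245557 to 122270732, plus strand). Gclc was at 115 and 114 CPM in Ctrl and 161 and 148 CPM in Rhox10 libraries at 0 h, and at 152 and 145 against 198 and 196 CPM (1 h). By 8 h it was at 136 and 133 against 114 and 127 CPM, with both Rhox10 libraries below both Ctrl libraries. The log2 difference was 0.44 at 0 h (edgeR adjusted p = 0.00443; 0.0648 without Rhox10 0 h replicate 1) and -0.15 at 8 h (not called), and the change from 0 h was called (edgeR adjusted p = 0.00141). Gclm had a log2 difference of -0.009 at 0 h, with a 95% interval of -0.20 to 0.18, which does not reach the 0.44 of Gclc. At 8 h Gclm was at 103 and 99.8 CPM in Ctrl and 79.3 and 82.7 CPM in Rhox10 libraries, a log2 difference of -0.32 that was called (edgeR adjusted p = 0.0269). Over the 9 alternatives run the Gclm value at 8 h ranged from -0.33 to -0.26, and 6 of them lost the call. These 6 included library totals (edgeR adjusted p = 0.0740) and each fit without 1 of the 4 libraries at 8 h. Its change from 0 h was not called (edgeR adjusted p = 0.422; 0.0423 without Ctrl 0.5 h replicate 1).

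Gsr (ENSMUSG00000031584, chromosome 8, 33652523 to 33698163, plus strand) encodes glutathione reductase, which regenerates reduced glutathione. It was at 21.7 CPM (212 counts) in Ctrl 0.5 h replicate 2 and at 71.8 to 90.4 CPM in every other library, with the vectors overlapping. Its averaged log2 difference was 0.10 (95% interval -0.14 to 0.35, not called), and without that library it was -0.031. Leaving out the other Ctrl library at 0.5 h gave 0.36 and a call (edgeR adjusted p = 1.04e-10), a fit in which the low library alone stands for Ctrl at 0.5 h.

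The genes of the sensor and of the transcription factor had smaller averaged differences than Nqo1, Slc7a11 and Hmox1. Nfe2l2 (ENSMUSG00000015839, chromosome 2, 75675513 to 75704641, minus strand), which encodes NRF2, was at 202 and 199 CPM in Ctrl and 309.6 and 309 CPM in Rhox10 libraries at 0 h. At 4 h it was at 210.1 and 214 against 249 and 242 CPM, and at 8 h at 211 and 210.0 against 243 and 214 CPM. Of the 12 Rhox10 libraries only 1 at 8 h, at 214 CPM, fell within the range of the Ctrl libraries, which reached 216 CPM. The log2 difference went from 0.63 at 0 h (edgeR adjusted p = 2.94e-06) to 0.12 at 8 h (not called), and the change from 0 h was called (edgeR adjusted p = 0.00549; 0.0535 without Ctrl 8 h replicate 1). Keap1 (ENSMUSG00000003308, chromosome 9, 21229730 to 21239361, minus strand), which encodes the repressor, was at 70.6 and 68.1 CPM in Ctrl and 70.2 and 70.5 CPM in Rhox10 libraries at 0 h, and at 66.1 and 65.4 against 92.0 and 82.7 CPM (8 h). Its log2 difference was 0.41 at 8 h (edgeR adjusted p = 0.0293) and 0.16 on average (edgeR adjusted p = 0.0274), the smallest of the 7 called. The 8 h call was lost without either Ctrl 8 h library or Rhox10 8 h replicate 1 (edgeR adjusted p from 0.104 to 0.197). The averaged call was lost without any 1 of 3 libraries, Ctrl 1 h replicate 1, Rhox10 2 h replicate 1 or Rhox10 4 h replicate 1 (edgeR adjusted p from 0.0583 to 0.0622).

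**Figure D2:**
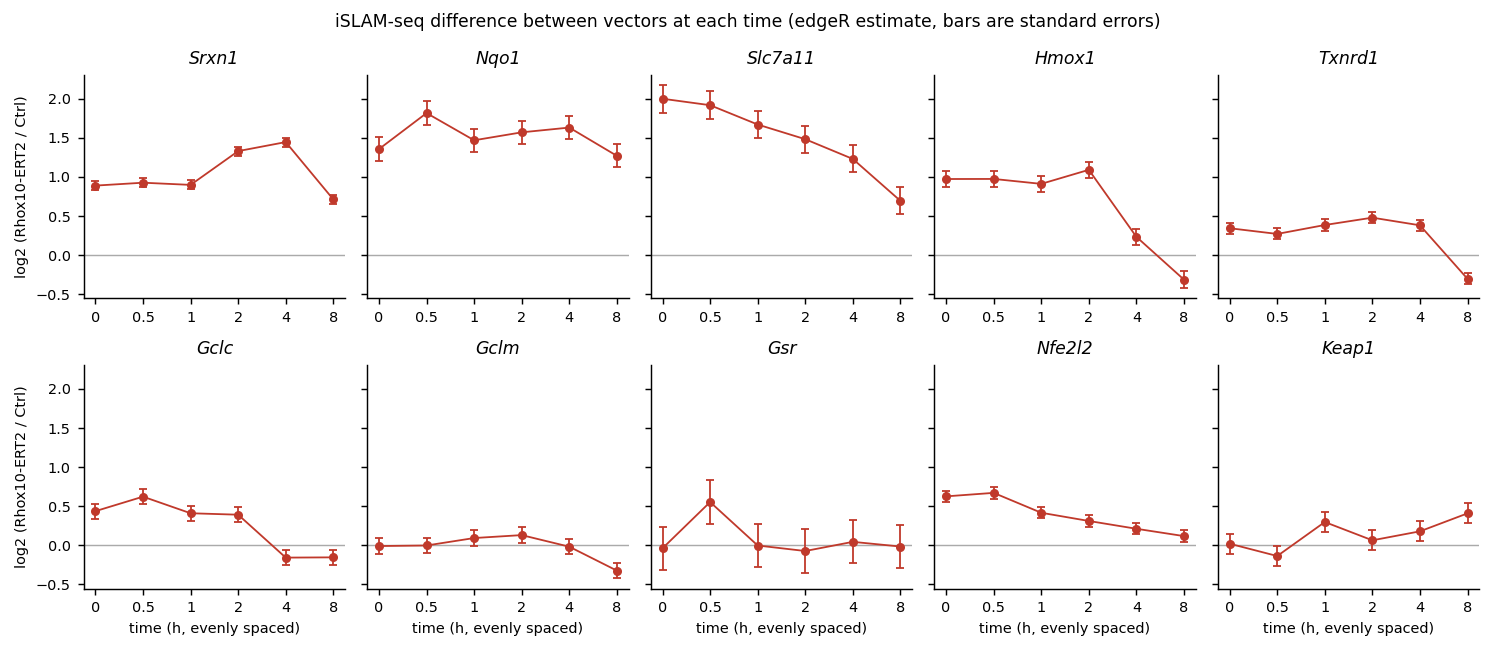
Log2 difference between Rhox10-ERT2 and Ctrl libraries on the y axis against time in hours, evenly spaced, 1 panel per gene, with edgeR estimates as points and standard errors as bars. Nqo1 stays between 1.27 and 1.82, Slc7a11 declines from 2.00 to 0.69, and Srxn1 is highest at 2 and 4 h. Hmox1, Txnrd1 and Gclc go from above 0 at 0 h to below 0 at 8 h.

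Within each vector, the change from 0 to 8 h separated the tested members. In Ctrl libraries 3 of the 9 were called, all higher (Slc7a11, Nqo1 and Hmox1), where 6.52% of all genes were called, 3.84% higher and 2.68% lower. In Rhox10 libraries 6 of the 9 were called, 1 higher (Nqo1) and 5 lower, where 7.18% of all genes were called, 3.12% higher and 4.06% lower. The 5 lower were Hmox1 (-0.89), Txnrd1 (-0.61), Gclm (-0.47), Nfe2l2 (-0.44) and Gclc (-0.36). These 2 comparisons rest on 2 libraries at each end, and leaving out 1 library gave 0 to 2 calls in Ctrl and 3 to 4 in Rhox10 libraries. In Rhox10 libraries the falls of Hmox1, Txnrd1 and Nfe2l2 were called in each such fit, and that of Gclm was lost without Rhox10 8 h replicate 1. The call of Gclc was lost in 5 of the 9 alternatives run, among them each fit without 1 of the 4 libraries. Its value ranged from -0.42 to -0.28.

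In RNA-seq of sorted testis cells the called members differed in direction. The members were chosen with the results of this comparison known, so its p-values, that of Srxn1 included, cannot be taken as independent of the choice. Of the 8 members that passed the filter on low counts, 4 were called, 3 higher in KO libraries (Srxn1, Hmox1 and Keap1) and 1 lower (Gsr). Over the 13538 genes tested 37.5% were called, 18.6% higher and 18.9% lower, so a count of 4 among 8 is near the background. With library totals 8 were called, 7 higher and 1 lower, and with scaling to 22 germline genes 7, all higher. These scalings moved the median log2 difference of all genes to 0.35 and 0.81. The share of all genes called under them was not worked out, so these counts have no background. In these bulk libraries fewer cells of a type and less RNA per cell cannot be told apart.

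**Figure D3:**
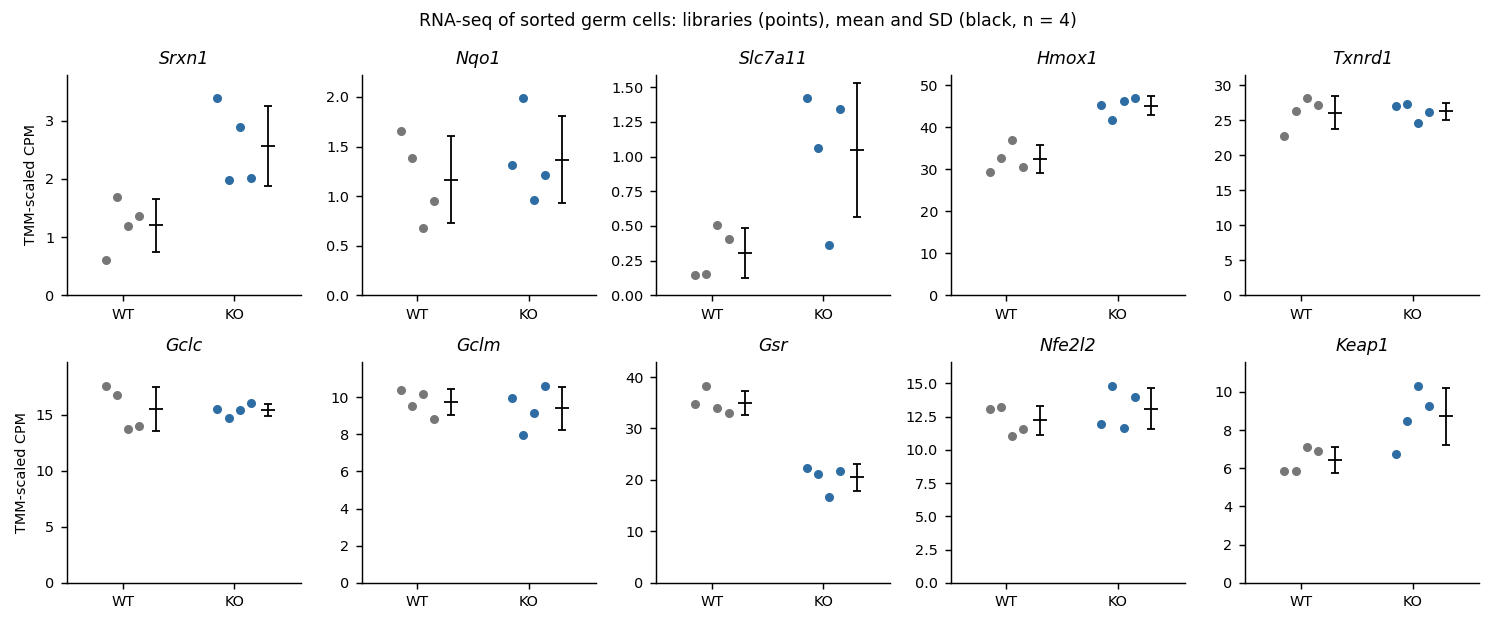
Level of each of the 10 genes in RNA-seq, in TMM-scaled CPM on the y axis (from 0), with a point per library for WT and KO and, in black, the mean and SD of 4 libraries. The KO libraries of Srxn1 and Hmox1 lie above all WT libraries, those of Gsr lie below, and Txnrd1, Gclc, Gclm and Nfe2l2 overlap.

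Srxn1 had the largest difference of the 8, at a low level. It had 31, 15, 24 and 15 counts in the 4 KO libraries and 4, 11, 7 and 10 in the 4 WT libraries, or 3.39, 1.99, 2.88 and 2.02 CPM against 0.602, 1.69, 1.19 and 1.36 CPM. The groups did not overlap. The log2 difference was 1.10 (SE 0.295, 95% interval 0.52 to 1.68, edgeR adjusted p = 0.0029). In RNA-seq Srxn1 was thus higher in libraries labelled as lacking Rhox10. In iSLAM-seq its level was higher in Rhox10 than in Ctrl libraries, by 0.89 log2 units already at 0 h. Srxn1 was selected on its iSLAM-seq difference, and no link between the assays was tested.

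Hmox1 was at 45.4, 41.8, 46.3 and 47.0 CPM in KO and 29.3, 32.8, 37.1 and 30.7 CPM in WT libraries, with no overlap, and rose by 0.48 (SE 0.0654, edgeR adjusted p = 1.07e-07). Heme oxygenase is also abundant in macrophages that clear red cells, and markers of other cells moved with it. The sum of 7 erythroid markers was 78.3 to 86.8 CPM in KO and 1.36 to 4.07 CPM in WT libraries, with Slc4a1 at 0 in WT, and 6 of the 6 tested were higher. The sum of 8 macrophage markers was 37.3 to 41.6 CPM in KO and 28.5 to 31.9 CPM in WT libraries, with 3 of 8 higher. Over all genes 37.5% were called, 18.6% higher and 18.9% lower. The Sertoli sum was higher in every KO library too (502 to 524 against 452 to 495 CPM), with 1 of 5 markers called. Leydig, endothelial and peritubular myoid sums were also higher in every KO library (44.7 to 53.3 against 32.0 to 33.8, 35.8 to 40.4 against 23.9 to 29.2, and 31.2 to 35.4 against 24.1 to 26.3 CPM), and 6 of 6 germ cell markers were lower. Their part in the Hmox1, Srxn1, Keap1 and Gsr differences was not tested.

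Gsr was at 22.4, 21.1, 16.7 and 21.8 CPM in KO and 34.7, 38.3, 33.9 and 33.0 CPM in WT libraries, with no overlap, a log2 difference of -0.77 (SE 0.0768, edgeR adjusted p = 5.83e-11) that turned to 0.034 when libraries were scaled to 22 germline genes. That scaling moved the median log2 difference of all genes from 0.0031 to 0.81, and library totals moved it to 0.35, while Srxn1, Hmox1 and Keap1 were higher in KO libraries under each scaling run. Keap1 was at 6.77, 8.48, 10.3 and 9.28 CPM in KO and 5.87, 5.83, 7.12 and 6.92 CPM in WT libraries. The groups overlapped, and Keap1 rose by 0.43 (SE 0.142, edgeR adjusted p = 0.0154). It was not called by DESeq2 (DESeq2 adjusted p = 0.0835), nor without KO replicate 3, WT replicate 1 or WT replicate 2 (edgeR adjusted p from 0.0501 to 0.0851).

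The remaining members were not called under TMM scaling. Nfe2l2 had a log2 difference of 0.09 (95% interval -0.12 to 0.30), Txnrd1 of 0.012 (-0.13 to 0.16), Gclc of -0.0099 (-0.20 to 0.18) and Gclm of -0.039 (-0.27 to 0.20). Slc7a11 and Nqo1 were below the filter. Slc7a11 had 13, 8, 3 and 10 counts in KO and 1, 1, 3 and 3 in WT libraries, and Nqo1 had 12, 15, 8 and 9 and 11, 9, 4 and 7. Exact permutation tests of their CPM over 70 arrangements, two-sided, gave p = 0.0857 for Slc7a11 and p = 0.571 for Nqo1 (Benjamini-Hochberg adjusted 0.171 and 0.571), where 0.0286 is the smallest p possible.

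Per kilobase of annotated exon length, the order of levels in WT RNA-seq libraries was Hmox1 (18.6 ± 1.95 CPM per kb, SD, n = 4), Gsr (12.7 ± 0.854), Gclc (4.12 ± 0.516), Txnrd1 (3.68 ± 0.334), Nfe2l2 (3.22 ± 0.289), Gclm (1.55 ± 0.112), Keap1 (1.37 ± 0.145), Nqo1 (0.751 ± 0.281), Srxn1 (0.428 ± 0.161) and Slc7a11 (0.0219 ± 0.0130). Gclc and Txnrd1, Txnrd1 and Nfe2l2, Gclm and Keap1, and Nqo1 and Srxn1 differed by less than the sum of their SDs, so the order within each of these neighbouring pairs is not resolved. Nqo1, Srxn1 and Slc7a11 were thus the 3 of lowest level per length in the sorted testis cells. Srxn1 was selected on its iSLAM-seq difference and the iSLAM-seq cells were cultured, so no link between level and difference is drawn.

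The wider target list held 37 other genes that NRF2 is known to regulate. In iSLAM-seq 35 were tested, and averaged over 0.5 to 8 h 26 were higher in Rhox10 libraries and 0 lower, where 18.7% of all genes were higher and 18.4% lower. The median log2 difference was 0.49 against 0.0015 over all genes. The largest rises were Aldh3a1 (1.65), an aldehyde dehydrogenase, Mgst1 (1.51) and Gstp1 (1.28), both glutathione transferases, and Ugdh (0.97), which makes UDP-glucuronate. As in the members, much of this was there at 0 h, when 18 were called, all higher, against 6.56% of all genes (9 to 13 without 1 library of that time, 9 of them without Ctrl 0 h replicate 1), with Aldh3a1 at 2.15, Mgst1 at 1.37 and Ugdh at 1.17. At 8 h 11 were called, all higher, where 8.06% of all genes were, and 7 without Ctrl 8 h replicate 1, Ctrl 8 h replicate 2 or Rhox10 8 h replicate 2. The averaged call of Gstp1 was lost without Rhox10 8 h replicate 1 (edgeR adjusted p = 0.0534), and its value was 2.33 without Ctrl 0.5 h replicate 1. From 0 to 8 h in Rhox10 libraries 10 were lower and 0 higher, where 4.06% of all genes were lower, with Ugdh (-0.94) and Ephx1 (-0.75), an epoxide hydrolase, the most so, and in Ctrl libraries 2 were lower, near the 2.68% of all genes. The change from 0 h was called for 3, Fth1, Ugdh and Me1, where 2.39% of all genes were called. That count was 6 with all 0.5 h libraries left out. It rose without either Ctrl 0.5 h library and fell without Ctrl 8 h replicate 1 or Rhox10 8 h replicate 2. Those fits leave 1 library in a group, and the share of all genes called in them was not worked out.

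**Figure D4:**
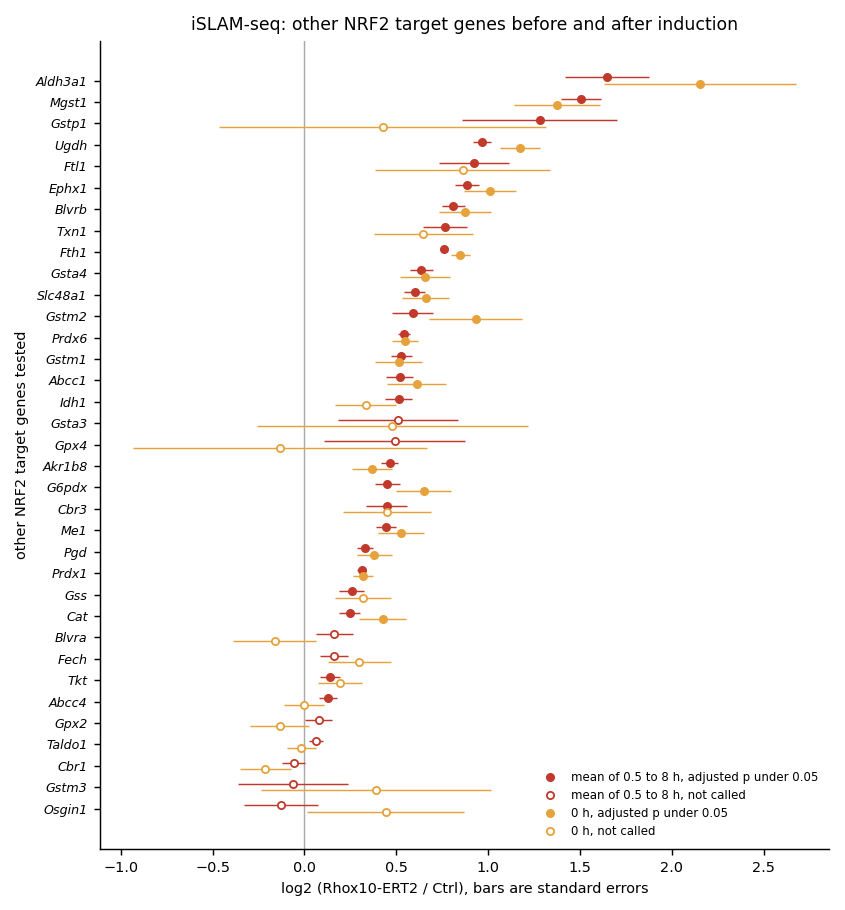
Log2 difference between Rhox10-ERT2 and Ctrl libraries on the x axis for the 35 other NRF2 target genes tested, 1 gene per row, ordered by the mean of 0.5 to 8 h (red) with the 0 h difference beneath (orange), bars being standard errors and filled points calls. All 26 red and 18 orange filled points lie to the right of 0.

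In RNA-seq 32 of the 37 were tested, of which 4 were higher in KO libraries and 7 lower, with a median of -0.086. Over all genes 18.6% were higher and 18.9% lower, so the count is near the background. The higher were Blvrb (0.86), a biliverdin reductase, Ugdh (0.63), Fech (0.41), which completes heme synthesis, and Ftl1 (0.32), ferritin light chain. Blvrb, Fech and Ftl1 act in heme or iron handling, and the erythroid markers above were higher in the same libraries; their part was not tested. The largest falls were Prdx1 (-0.69), Taldo1 (-0.56) and Pgd (-0.46), both of the pentose phosphate pathway, and Gstp1 (-0.42). Each of these 4 falls turned positive under scaling to germline genes, which called 30 of the list, all higher. With library totals 15 were higher and 1 lower. The share of all genes called under either scaling was not worked out, so these counts have no background.

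Peroxiredoxins reduce peroxides, and the typical 2-Cys members Prdx1 to Prdx4 are those that sulfiredoxin repairs. Averaged over 0.5 to 8 h in iSLAM-seq, 4 of the 6 were higher in Rhox10 libraries, Prdx6 (0.54), Prdx5 (0.34), Prdx1 (0.31) and Prdx2 (0.19), and Prdx4 (-0.21) was lower. Prdx3 was not called (0.30). Over all genes 37.1% were called in that comparison. In RNA-seq Prdx1 (-0.69), Prdx4 (-0.53) and Prdx6 (-0.36) were lower in KO libraries and 0 were higher, where 37.5% of all genes were called, and scaling to germline genes turned all 3 positive and called 5 of the 6, all higher. With library totals 2 were higher and 1 lower. As above, counts under these scalings have no background. Under TMM scaling, but not under germline scaling, Prdx1, a substrate of sulfiredoxin, was lower in the KO libraries in which Srxn1 was higher.

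Among 10 regulators of NRF2, 4 were higher and 2 lower in Rhox10 libraries on average, where 18.7% of all genes were higher and 18.4% lower. Higher were Maff (0.58), a small MAF partner, Sqstm1 (0.36), whose product p62 sequesters KEAP1, Nfe2l1 (0.32), a related factor, and Gsk3b (0.13). Lower were the competitor Bach1 (-0.27) and Cul3 (-0.19, and -0.12 without Ctrl 0.5 h replicate 1). The differences of Sqstm1 and Bach1 changed from 0 h (edgeR adjusted p = 1.27e-07 and adjusted p = 0.000473), 2 calls in all, where 2.39% of all genes were called. More were called without Ctrl 0.5 h replicate 1, a fit for which the share of all genes was not worked out. Sqstm1 went from 0.68 at 0 h to -0.50 at 8 h, and Bach1 was at -0.85 at 8 h. In RNA-seq 4 were higher in KO libraries, Maff (0.38), Btrc (0.28), Mafk (0.24) and Sqstm1 (0.23), and 2 lower, Rbx1 (-0.41) and Cul3 (-0.22), where 37.5% of all genes were called. DESeq2 called 2 of the 10, Rbx1 and Sqstm1. The calls of Maff and Mafk were both lost without KO replicate 3, that of Maff also without WT replicate 1 and that of Mafk also without WT replicate 2, 3 or 4 (edgeR adjusted p from 0.0502 to 0.163). With library totals 8 were called, all higher, and scaling to germline genes called all 10 and turned Rbx1 and Cul3 positive. As above, counts under these scalings have no background.

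Slc7a11 also responds to ATF4, the factor of the amino acid and unfolded protein stress response, so 11 genes of that response were set beside it. In iSLAM-seq 4 were higher on average, Trib3 (0.88), Vldlr (0.66), Ddit4 (0.58) and Asns (0.26), and Atf4 itself was lower (-0.15), a count of 5 among 11 that is near the 37.1% of all genes called. At 0 h 6 were higher, where 6.56% of all genes were, led by Chac1 (1.31) and Vldlr (1.05). The change of the difference from 0 h was called for 4 of the 11, where 2.39% of all genes were called. That count varied over fits without 1 library. The median change of the difference from 0 to 8 h was -0.43, against -0.020 over all genes. From 0 to 8 h in Rhox10 libraries 5 were lower, where 4.06% of all genes were, with Atf3 at -2.94 and Chac1 at -2.24, and in Ctrl libraries Atf3 (-1.59) and Chac1 (-1.03) were lower too, where 2.68% of all genes were. In RNA-seq 9 of the 11 were tested, where 37.5% of all genes were called, and 2 were higher in KO libraries, Ddit3 (1.01) and Atf3 (0.42), and 4 lower, Phgdh (-0.99), Psat1 (-0.62), Asns (-0.37) and Ddit4 (-0.24). The calls of Asns and Ddit4 were lost without KO replicate 1 or 4 or WT replicate 2 or 4 (edgeR adjusted p from 0.0532 to 0.140), that of Ddit4 also without KO replicate 3, and neither was called by DESeq2. Of these falls only that of Phgdh stayed negative under scaling to germline genes, at -0.18 and no longer called (edgeR adjusted p = 0.0697).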

How the data were processed

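RNA-seq and iSLAM-seq values are whole-number counts per gene that the authors deposited, per the file headers. Per the submitters' processing notes, RNA-seq used STAR 2.5.2b, featureCounts (Subread) and DESeq2 on GRCm38, CUT&Tag used Bowtie2 2.2.5, SAMtools and HOMER on mm10, and iSLAM-seq used limma 3.42.2 on mm10. The aligner, counter, strand setting and any selection of converted reads for iSLAM-seq are not given in the sources used here. Per the labels' protocols, the iSLAM-seq libraries cover 3′ ends, so their counts do not scale with gene length and no levels are compared between genes there. Peak score and distance to the start site are the authors' own, per the file headers of the deposited peak table, and how the control libraries entered that table is not given in the sources used here. The gene lengths behind values per kilobase are also the authors' own.

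From the counts, edgeR 4.0.16 (R 4.3.3, limma 3.58.1) ran a quasi-likelihood test with TMM scaling, filterByExpr and Benjamini-Hochberg adjustment over all genes tested, on 8 RNA-seq libraries by genotype and on 24 iSLAM-seq libraries as 12 group means. Standard errors were the log2 fold change divided by the root of the F statistic. The model was also run on counts simulated from its own fit, a setting that does not bear on the choice of scaling. Alternatives were DESeq2 1.42.0, DESeq2 size factors, library totals, scaling to 22 germline genes, no filter, removal of genes above 1% of a library, a replicate block, and leaving out libraries. Genes below the filter in RNA-seq were compared with an exact permutation test. Symbols were matched to the GENCODE M21 annotation for 55450 of 55536 identifiers. All 10 members are named, with up to 4 of the largest rises and falls per list and comparison among called genes, Prdx1 to Prdx4, and the 5 genes most like Srxn1 by correlation of log2(CPM + 0.5). The members and lists were chosen with earlier results of these data known.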

Additional observations from a re-analysis of the deposited data

Results flagged for a closer look

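For 5 of the 9 tested members Rhox10 and Ctrl libraries differed by an amount that changed over the time course. This is by the F-test of the change from 0 h, where 2.39% of all genes were called. For Hmox1 the log2 difference went from 0.97 at 0 h to -0.31 at 8 h (edgeR adjusted p = 2.57e-06). For Txnrd1 it went from 0.34 to -0.30 (edgeR adjusted p = 0.00018), and for Gclc from 0.44 to -0.15 (edgeR adjusted p = 0.00141). For Nfe2l2 it went from 0.63 to 0.12 (edgeR adjusted p = 0.00549), and for Slc7a11 from 2.00 to 0.69 (edgeR adjusted p = 0.0163). The calls of Nfe2l2 and Slc7a11 were each lost when particular 8 h libraries were left out, as given above. In each of the 5 the log2 difference was smaller or of opposite sign at 8 h. Among the members' RNA-seq values, 20 groups of 4 libraries were checked for a value standing apart from its group, and 0 were found, where about 1 would be found by chance.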

How the results depend on the processing

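Among 94 gene values, 1411 of 1536 values under an alternative kept their direction and their side of the threshold. Srxn1 in iSLAM-seq has no test, so its values counted as kept where they lay within the pooled within-group SD of the main value. For RNA-seq, 4 members were called in the main comparison, 8 with library totals and 7 with scaling to germline genes, and 3 to 5 under every other alternative run. Library totals moved the median of all genes to 0.35 and germline scaling to 0.81 on the log2 scale, and the cause was not tested. The share of all genes called under either scaling was not worked out. Under germline scaling these RNA-seq log2 differences turned positive: Gclc 0.80, Gclm 0.77, Cul3 0.59, Ddit4 0.57, Prdx6 0.45, Asns 0.44, Rbx1 0.40, Gstp1 0.39, Pgd 0.34, Prdx4 0.28, Taldo1 0.24, Psat1 0.19, Prdx1 0.12 and Gsr 0.034. Library totals turned Gclc (0.34), Gclm (0.31), Cul3 (0.13) and Ddit4 (0.11) positive, and the value of Txnrd1 from 0 to 8 h in Ctrl libraries to -0.0033.

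Leaving out 1 library changed the sign of values that were not called in the main comparison. In RNA-seq Gclc ranged from -0.073 to 0.049, Gclm from -0.097 to 0.028 and Txnrd1 from -0.057 to 0.042. From 0 to 8 h in Ctrl libraries Gsr ranged from -0.11 to 0.0499 and Txnrd1 from -0.038 to 0.073. Averaged over 0.5 to 8 h Gclm ranged from -0.051 to 0.021, and Gsr from -0.031 to 0.36, the last being a call. Counts of called members from 0 to 8 h went from 3 to 0 to 2 in Ctrl and from 6 to 3 to 4 in Rhox10 libraries, in fits with fewer samples. The count of members called for the change from 0 h went both down and up in such fits, and was highest without Ctrl 0.5 h replicate 1. It was 5 with all 0.5 h libraries left out, an alternative chosen after seeing the data. The averaged difference was called for 6 to 8, and the calls over the 6 times, 33 in all, ranged from 29 to 38. Of the 7 named peaks 5 lay within 3 kb.

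Same-numbered libraries did not deviate together (correlations of -0.019 to 0.022 in RNA-seq and -0.106 to 0.092 in iSLAM-seq), so the numbers are not taken as pairs. A replicate block left the counts at 4 in RNA-seq, 7 for the average, 5 for the change from 0 h, 3 and 6 for 8 h against 0 h in Ctrl and Rhox10 libraries, and 33 over the times, and among single genes it took away the RNA-seq call of Ddit4 (edgeR adjusted p = 0.0530). The low counts of Srxn1, Nqo1 and Slc7a11 in RNA-seq limit their precision.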
